A study of Homo sapiens with 9 samples.

Results

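The genes described here are 10 members of the interleukin-6 (IL-6) cytokine family and its signalling pathway, chosen by name: the ligands IL6, IL11, LIF and CLCF1, the receptors IL6R, IL6ST, LIFR and OSMR, the transcription factor STAT3 and the feedback inhibitor SOCS3. They are 10 of the 58676 genes counted, and all 10 were among the 15975 genes with enough counts to be tested. RNA was sequenced from OVCA433, an established line labelled as ovarian serous adenocarcinoma, grown in RPMI medium with serum and transduced with lentivirus under puromycin selection. The groups were cells with a control vector, cells with short hairpin RNA (shRNA) #1 against MPZL3 and cells with shRNA #3 against MPZL3, each with 3 biological replicates marked A, B and C, so that all 9 libraries came from transduced cells of 1 line. The study calls the control of this line an empty vector in one place and a scrambled hairpin in another, so it is uncertain whether the control cells expressed a hairpin.

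Cytokines of this family act through receptor complexes built around gp130, the signal-transducing chain encoded by IL6ST. A ligand first meets its own receptor chain, such as IL6R for IL-6, or LIFR for LIF, and the complex then activates Janus kinases and STAT3. STAT3 induces SOCS3, which shuts the signal down, and in ovarian cancer IL-6 is known as a cytokine of tumour cells and ascites.

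MPZL3, the targeted gene, was at 15.6, 21.9 and 21.0 CPM (counts scaled to a common library size) in control replicates A, B and C, and at 0.988 to 1.98 CPM in the 6 knockdown libraries. Library totals ranged from 16850854 to 23890191 counts. Of the 7 markers of serous epithelium, the keratins KRT7, KRT8 and KRT18 were the most abundant, PAX8 was higher with both hairpins (mean 97.0 CPM in control, 199.9 and 207.3 CPM), EPCAM was lower (402.6, 5.48 and 8.93 CPM), WT1 had no count in any library, and MUC16 had a mean of 3.18 CPM in control and no count with either hairpin. The summed level of these markers was 9964 to 12050 CPM in control, 5219 to 6668 with hairpin #1 and 5156 to 5781 with hairpin #3. The 6 fibroblast markers summed to 2.29 to 2.96, 13.2 to 24.2 and 16.1 to 22.8 CPM in the same order, with DCN at 0 in every library, and the 4 endothelial markers to 0.547 to 1.02, 4.16 to 6.65 and 5.12 to 7.50 CPM. The 6 leukocyte markers summed to at most 1.35 CPM in any library, with LYZ at 0. The higher fibroblast sum was mainly PDGFRB (mean 0.555 CPM in control, 13.8 and 16.8 with hairpins #1 and #3), while FAP was lower (0.550, 0.352 and 0.129). The higher endothelial sum was mainly CDH5 and KDR, with VWF at 0.388, 0.422 and 0.511 CPM. The epithelial, fibroblast and endothelial sums thus differed between control and knockdown, as several members below did, and the part of these sums in those results was not tested.

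The 250 bases before the RefSeq transcription start of IL6, IL11 and LIFR, the members called higher in the pooled comparison below, are given 5′ to 3′ on the strand of the gene, from RefSeq on GRCh38.p14. Capitals mark a match to one of 4 motifs searched on both strands: a STAT motif (TTCNNNGAA), a kappaB motif (GGG, any 2 bases, TTTCC), an AP-1 motif (TGANTCA) and a CRE motif (TGACGTCA). Gene positions further on are those of the count table on GRCh38, and the RefSeq start of IL6 lies inside its gene there. LIFR has several starts in the RefSeq table, and the one farthest upstream is shown.
IL6 (chr7:22726950-22727199, plus strand): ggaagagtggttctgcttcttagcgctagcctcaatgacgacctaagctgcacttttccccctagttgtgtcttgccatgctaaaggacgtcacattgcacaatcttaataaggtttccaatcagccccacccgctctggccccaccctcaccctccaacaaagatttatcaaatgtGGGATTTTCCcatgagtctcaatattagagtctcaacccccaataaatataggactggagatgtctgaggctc
IL11 (chr19:55370464-55370713, minus strand): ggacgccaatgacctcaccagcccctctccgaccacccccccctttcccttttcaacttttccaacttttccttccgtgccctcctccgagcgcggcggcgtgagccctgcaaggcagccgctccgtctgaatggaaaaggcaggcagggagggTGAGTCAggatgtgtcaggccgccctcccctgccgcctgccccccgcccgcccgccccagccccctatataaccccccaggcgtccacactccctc
LIFR (chr5:38595406-38595655, minus strand): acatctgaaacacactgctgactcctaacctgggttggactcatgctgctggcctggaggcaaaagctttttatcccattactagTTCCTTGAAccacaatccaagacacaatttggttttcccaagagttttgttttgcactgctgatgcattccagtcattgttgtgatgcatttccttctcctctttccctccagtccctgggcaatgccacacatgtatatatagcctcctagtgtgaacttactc

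IL6 held the kappaB motif at -73 to -64 from the start, a motif present in 1.73% of the 35116 promoters of the same length. IL11 held the AP-1 motif at -96 to -90, which 6.57% of promoters had. LIFR held a STAT motif at -165 to -157, which 6.57% of promoters had, and a further LIFR start (chr5:38557468-38557717) held another at -182 to -174. The remaining LIFR start (chr5:38556647-38556896) held no match. The shares are per promoter, and LIFR had several. Of the 8 members with a promoter in the table, IL6, IL11 and LIFR were those with a match. The CRE motif, present in 1.65% of promoters, was in no window, and no match overlapped another. A match describes letters and not a bound site. LIF and CLCF1 were not in the table.

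Levels of different genes were compared per gene length, as TPM (counts per base of gene length, scaled to a common sum) computed from the counts and the gene lengths of the table. In control cells the most abundant members were CLCF1 at 90.7 ± 19.7 TPM (SD, n = 3) and LIF at 86.8 ± 15.1 TPM, which did not differ beyond their spread. STAT3 (51.5 ± 1.14), IL6ST (49.3 ± 8.71), OSMR (42.8 ± 6.62) and SOCS3 (41.7 ± 3.72) followed, each within the spread of the next. IL11 (6.97 ± 1.20), LIFR (3.20 ± 1.00), IL6 (3.14 ± 0.891) and IL6R (1.83 ± 0.183) were lowest, with LIFR and IL6 within each other's spread. With hairpin #1 the order was led by the receptors IL6ST (100.1 ± 17.4 TPM) and OSMR (79.3 ± 10.2), and IL6 stood at 37.7 ± 27.4, above CLCF1 at 33.0 ± 3.13 but within its own spread of it. With hairpin #3, LIF (74.0 ± 17.5 TPM) and IL6ST (70.5 ± 5.64) were highest, within their spread, and IL11 at 27.5 ± 1.15 was above IL6 at 9.03 ± 5.82. IL6R, the chain that binds IL-6 itself, was the least abundant member in every group, at 0.387 ± 0.0697 TPM with hairpin #1 and 0.892 ± 0.301 with hairpin #3.

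Each hairpin was compared with control, both hairpins together were compared with control as the study grouped them, and the hairpins were compared with each other. A gene was called where the edgeR adjusted p was under 0.05 and the change at least 2-fold. The comparisons with control share the 3 control libraries. In the pooled comparison 5 of the 10 members were called, IL6, IL11 and LIFR higher and CLCF1 and IL6R lower, while 14.7% of all tested genes were called. With hairpin #1, 5 members were called (IL6, LIFR and IL6ST higher, CLCF1 and IL6R lower) against 16.3% of all genes. With hairpin #3, 3 members were called (IL11 higher, CLCF1 and IL6R lower) against 15.3%. Between the hairpins 4 members were called, against 3.93%: IL11 and IL6R were higher and IL6 and LIFR lower with hairpin #3 than with hairpin #1. The members and lists were chosen with earlier results of these data known. The shares here and below therefore describe them and do not test them against all genes. The median log2 change over the 10 members was 0.50 pooled, 0.63 with hairpin #1 and 0.20 with hairpin #3, where the medians over all genes were 0.0045, 0.00088 and -0.0029. In these bulk libraries, a smaller share of expressing cells and less RNA per cell cannot be told apart.

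**Figure D1:**
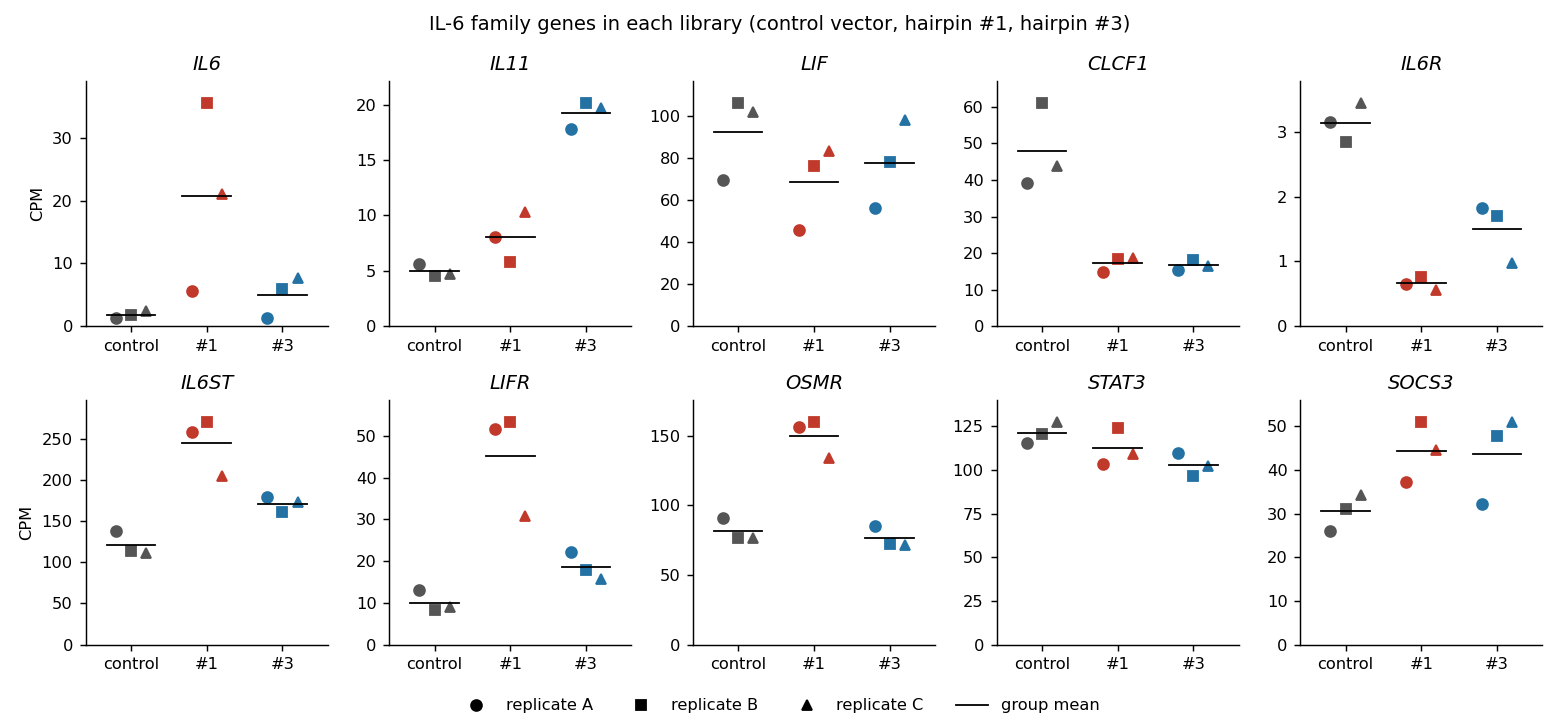
Level of each member in each library (CPM, linear axis from 0) by group, with circles, squares and triangles for replicates A, B and C and a line at the group mean. IL6 spans 5.65 to 35.6 CPM among the hairpin #1 libraries, and CLCF1 and IL6R lie below control in all 6 knockdown libraries.

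Among the ligands, IL6 showed the largest change in the pooled and hairpin #1 comparisons, and IL11 the largest with hairpin #3. IL-6 is the founding cytokine of the family, a driver of inflammation and of the acute-phase response. IL6 (ENSG00000136244, chr7:22725884-22732002) was at 1.21, 1.69 and 2.34 CPM in control replicates A, B and C. With hairpin #1 it was at 5.65, 35.6 and 21.1 CPM, and with hairpin #3 at 1.29, 5.98 and 7.64 CPM. All hairpin #1 libraries were above every control library, and hairpin #3 replicate A lay within the control range.

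IL6 rose with hairpin #1 by 3.56 ± 0.644 on the log2 scale (SE, edgeR adjusted p = 0.00065), an 11.9-fold ratio of mean CPM. With hairpin #3 the log2 difference from control was 1.53 (95% interval 0.068 to 2.98, edgeR adjusted p = 0.10), which did not pass. With the replicate letter as a block in the model it was 1.43 (edgeR adjusted p = 0.0019) and was called. Without hairpin #3 replicate A that difference was 1.96 (edgeR adjusted p = 0.022), and without hairpin #1 replicate A it was 1.52 (edgeR adjusted p = 0.021). Leaving out all 3 replicate A libraries, a choice made after seeing the data, gave 1.77 (edgeR adjusted p = 2.77e-05). Of the 17 alternatives run, 5 called this difference and 12 did not. Among those 12 it was as low as 1.07, with an edgeR adjusted p of up to 0.32. The pooled rise of 2.88 ± 0.874 (edgeR adjusted p = 0.025) rested on 25 to 49 counts per control library, and was not called without control replicate A, B or C (edgeR adjusted p = 0.089, 0.088 and 0.064). IL6 was lower with hairpin #3 than with hairpin #1 by a log2 difference of -2.04 ± 0.574 (edgeR adjusted p = 0.035). This call was lost without control replicate B (adjusted p = 0.053), hairpin #1 replicate B (a difference of -1.41, adjusted p = 0.19) or C (0.079), and hairpin #3 replicate A (0.072) or B (0.096), all by edgeR.

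IL11, a cytokine of the same family known from fibrosis and bone, went the other way between the hairpins. IL11 (ENSG00000095752, chr19:55364389-55370463) was at 5.62, 4.48 and 4.73 CPM in control, at 8.08, 5.80 and 10.3 CPM with hairpin #1 and at 17.8, 20.1 and 19.8 CPM with hairpin #3. The 3 groups did not overlap, and the hairpin #3 libraries were tightly grouped. Its log2 rise was 1.96 ± 0.191 with hairpin #3 (edgeR adjusted p = 3.27e-06) and 0.71 ± 0.194 with hairpin #1 (edgeR adjusted p = 0.011), the latter under 2-fold and with an adjusted p of up to 0.062 over the alternatives. The difference between the hairpins was 1.25 ± 0.183 (edgeR adjusted p = 0.00065). The pooled rise of 1.46 (edgeR adjusted p = 0.012) was not called without control replicate B (adjusted p = 0.058) or C (0.051).

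CLCF1, which signals through gp130 and LIFR once its CNTF receptor chain is bound, fell with both hairpins. CLCF1 (ENSG00000175505, chr11:67364168-67374177) was at 39.1, 61.0 and 43.7 CPM in control, 14.9, 18.4 and 18.7 CPM with hairpin #1 and 15.5, 18.0 and 16.4 CPM with hairpin #3. The knockdown and control libraries did not overlap. The log2 change was -1.47 ± 0.160 with hairpin #1 (edgeR adjusted p = 8.15e-06) and -1.53 ± 0.161 with hairpin #3 (edgeR adjusted p = 6.85e-06). The hairpins differed by -0.06 (95% interval -0.41 to 0.30). RAD9A, annotated across CLCF1 on the opposite strand and not separable from it by strand in these libraries, had a pooled log2 change of -0.99 (edgeR adjusted p = 4.26e-05), beside -1.50 for CLCF1. A protein-coding entry on the same strand, AP003419.11, also overlaps CLCF1.

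LIF, which keeps stem cells undifferentiated and signals through LIFR and gp130, was not called in any of the 4 comparisons. LIF (ENSG00000128342, chr22:30240447-30246851) was at 69.5, 106.0 and 101.7 CPM in control, 45.7, 76.3 and 83.1 CPM with hairpin #1 and 56.0, 78.2 and 97.9 CPM with hairpin #3. The groups overlapped, and replicate A was the lowest library of each. The pooled log2 difference was -0.34 (95% interval -0.81 to 0.12, edgeR adjusted p = 0.25). With the replicate letter as a block in the model it was -0.36 (edgeR adjusted p = 0.017). The blocked differences were -0.46 with hairpin #1 (edgeR adjusted p = 0.00031) and -0.27 with hairpin #3 (edgeR adjusted p = 0.015). All were under 2-fold, so LIF was not called there either.

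Of the receptors, IL6R fell with both hairpins, and IL6ST and LIFR rose with hairpin #1. IL6R encodes the chain that binds IL-6 and hands it to gp130. IL6R (ENSG00000160712, chr1:154405193-154469450) was at 3.15, 2.84 and 3.44 CPM in control, 0.654, 0.763 and 0.557 CPM with hairpin #1 and 1.82, 1.70 and 0.967 CPM with hairpin #3. The 3 groups did not overlap, although the hairpin #1 values rest on 14, 15 and 13 counts. The log2 change was -2.25 ± 0.301 with hairpin #1 (edgeR adjusted p = 5.25e-05) and -1.08 ± 0.276 with hairpin #3 (edgeR adjusted p = 0.0078), the latter -0.83 without hairpin #3 replicate C. IL6R was higher with hairpin #3 than with hairpin #1 by 1.17 ± 0.321 (edgeR adjusted p = 0.031). That call was lost without any hairpin #1 library (adjusted p = 0.062, 0.055 and 0.11 without A, B and C), without hairpin #3 replicate A (0.097) or B (0.12), and without all replicate A libraries (0.12), all by edgeR.

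IL6ST, the gp130 chain shared by the family, was at 138.7, 114.0 and 111.8 CPM in control, 258.8, 271.1 and 205.7 CPM with hairpin #1 and 180.0, 160.8 and 173.4 CPM with hairpin #3. IL6ST (ENSG00000134352, chr5:55935095-55994993) did not overlap between the groups. Its log2 rise was 1.01 ± 0.123 with hairpin #1 (edgeR adjusted p = 2.18e-05) and 0.50 ± 0.122 with hairpin #3 (edgeR adjusted p = 0.0062, under 2-fold). The hairpin #1 rise sat at the fold threshold and was 0.93 to 0.97 when control B, control C, hairpin #1 A or hairpin #1 B was left out. The hairpins differed by -0.52 ± 0.121 (edgeR adjusted p = 0.014, up to 0.081 over the alternatives, under 2-fold).

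LIFR, the receptor chain for LIF that pairs with gp130, was at 13.0, 8.21 and 8.89 CPM in control, 51.6, 53.4 and 30.8 CPM with hairpin #1 and 22.2, 17.9 and 15.7 CPM with hairpin #3. LIFR (ENSG00000113594, chr5:38474963-38608354) did not overlap between any of the groups. It rose by 2.17 ± 0.227 on the log2 scale with hairpin #1 (edgeR adjusted p = 5.82e-06) and by 0.89 ± 0.228 with hairpin #3 (edgeR adjusted p = 0.0082, under 2-fold, and 1.12 without control replicate A). The hairpins differed by -1.28 ± 0.218 (edgeR adjusted p = 0.0019).

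OSMR, the oncostatin M receptor chain, was higher with hairpin #1 and close to control with hairpin #3. OSMR (ENSG00000145623, chr5:38845858-38945596) was at 91.2, 76.8 and 76.8 CPM in control, 156.3, 160.0 and 133.9 CPM with hairpin #1 and 85.4, 72.1 and 71.3 CPM with hairpin #3. The hairpin #1 libraries were above all others, and the hairpin #3 and control libraries overlapped. The log2 difference from control was 0.88 ± 0.112 with hairpin #1 (edgeR adjusted p = 3.59e-05, under 2-fold) and -0.10 with hairpin #3 (95% interval -0.34 to 0.14). The hairpins differed by -0.98 ± 0.113 (edgeR adjusted p = 0.00011), just under 2-fold, and by over 2-fold without hairpin #1 replicate C (-1.05), hairpin #3 replicate A (-1.07) or all replicate A libraries (-1.03). RICTOR, which overlaps OSMR on the opposite strand, had log2 changes of 0.73 with hairpin #1 (edgeR adjusted p = 0.0012) and -0.07 with hairpin #3.

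**Figure D2:**
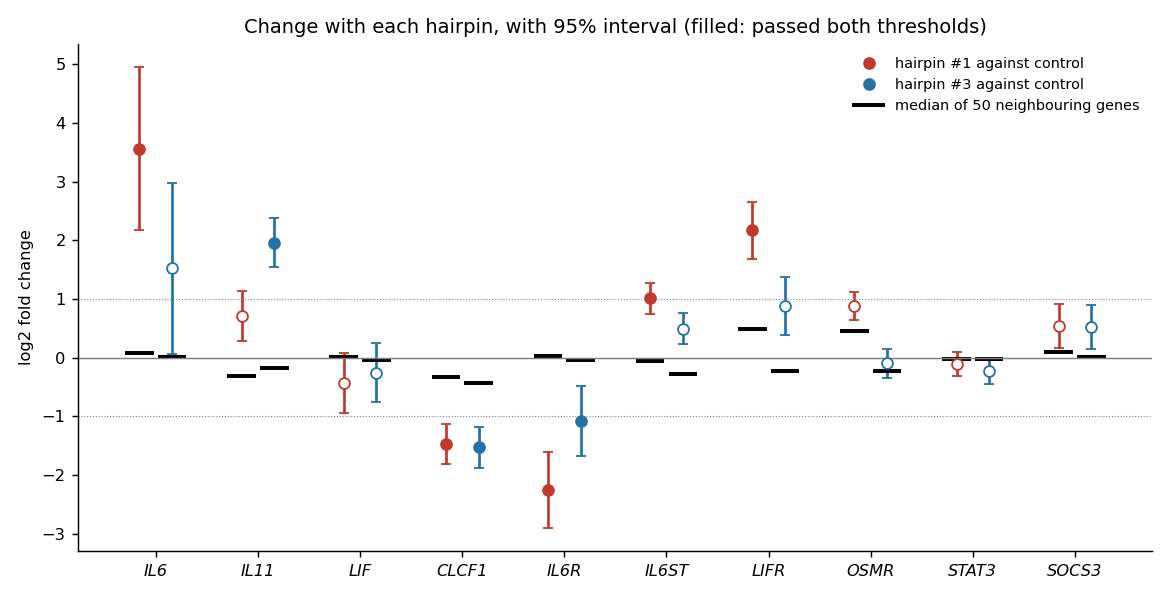
Log2 fold change of each member against control with hairpin #1 (red) and hairpin #3 (blue), with 95% intervals. Filled points passed both thresholds, dotted lines mark 2-fold, and black bars mark the median of the 50 nearest expressed genes. The bars for LIFR and OSMR stand at 0.48 and 0.46 with hairpin #1 and at -0.22 and -0.23 with hairpin #3.

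The receptor genes LIFR, OSMR and IL6ST all lie on chromosome 5, and each member was set beside its 50 nearest tested genes averaging 10 CPM or more, 25 on each side. Around LIFR, the median log2 difference of hairpin #3 from hairpin #1 was -0.75 and 46 of the 50 neighbours were lower with hairpin #3. The same 2 values held for OSMR, whose window shares 48 genes with that of LIFR. LIFR itself differed by -1.28, lower than 47 of its neighbours, and OSMR by -0.98, lower than 40 of them. Against control, the neighbours of LIFR had medians of 0.48 with hairpin #1 and -0.22 with hairpin #3, so that LIFR stood 1.69 and 1.11 above them, and OSMR stood 0.42 and 0.13 above its own. For IL6ST, farther along the chromosome, the neighbours had medians of -0.05 and -0.27 against control, with IL6ST 1.07 and 0.77 above them. That window shares 19 genes with that of LIFR, so its medians mix genes of both stretches. Between the hairpins its median was -0.18, beside -0.52 for IL6ST. What shifted the genes around LIFR and OSMR together was not tested.

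**Figure D3:**
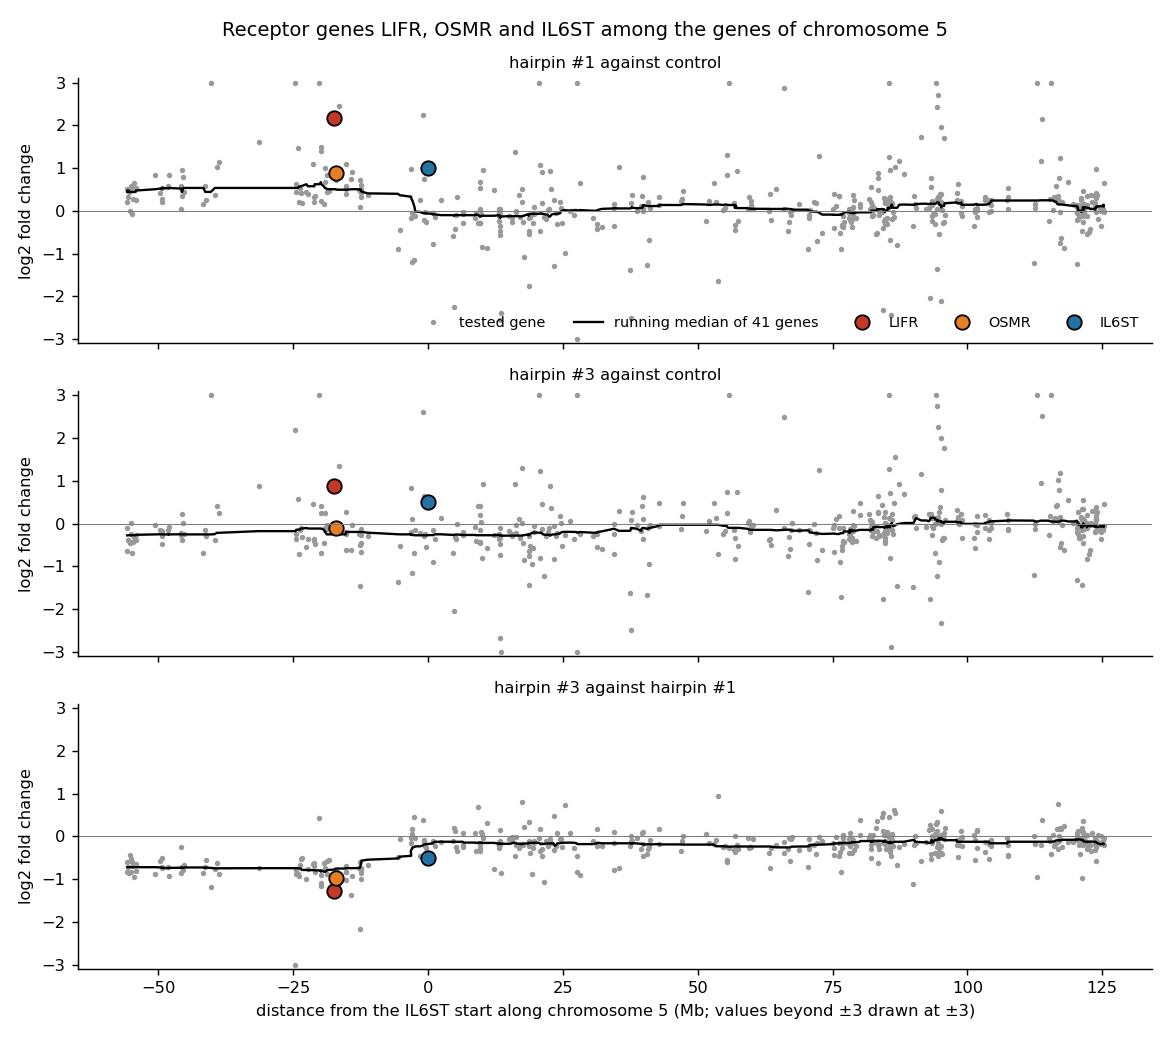
Log2 fold change of each tested chromosome 5 gene with enough counts (grey) by distance of its midpoint from the start of IL6ST, with a running median (black). LIFR (red) and OSMR (orange) lie near -17 Mb, where the running median is above 0 with hairpin #1 and below 0 with hairpin #3, and IL6ST (blue) lies past that stretch.

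Away from chromosome 5, the median of the neighbours lay within 0.13 of 0 in all comparisons for IL6, LIF, IL6R, STAT3 and SOCS3. Around CLCF1 it was -0.39 in the pooled comparison, and CLCF1 differed from it by -1.11. Around IL11 it was -0.23, with IL11 1.69 above it.

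STAT3 and SOCS3 stand downstream of all these receptors. STAT3 (ENSG00000168610, chr17:42313324-42388568) was at 115.3, 120.3 and 127.5 CPM in control, 103.6, 124.1 and 109.3 CPM with hairpin #1 and 109.5, 96.7 and 102.0 CPM with hairpin #3. The hairpin #3 libraries lay below the lowest control library, and the hairpin #1 libraries overlapped them. The pooled log2 difference was -0.17 (95% interval -0.37 to 0.03, edgeR adjusted p = 0.17), an interval narrower than that of any other member. These values are of messenger RNA, and STAT3 activity through phosphorylation was not measured in these libraries.

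SOCS3, a gene that STAT3 induces and whose product blocks gp130 signalling, was at 26.1, 31.1 and 34.3 CPM in control, 37.3, 51.0 and 44.7 CPM with hairpin #1 and 32.1, 47.8 and 51.0 CPM with hairpin #3. SOCS3 (ENSG00000184557, chr17:78356778-78360077) was above all control libraries in 5 of 6 knockdown libraries, the exception being hairpin #3 replicate A. The log2 rise was 0.54 ± 0.171 with hairpin #1 (edgeR adjusted p = 0.024) and 0.52 ± 0.172 with hairpin #3 (edgeR adjusted p = 0.031), both under 2-fold. Over the alternatives the adjusted p reached 0.10 and 0.13. The hairpins differed by -0.02 (95% interval -0.39 to 0.35).

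The members also differed by replicate letter. Replicate A was compared with the mean of B and C with group in the model, calling genes at an edgeR adjusted p under 0.05 with no fold threshold. By this rule 6 of the 10 members were called, against 21% of all tested genes. IL6, LIF, CLCF1 and SOCS3 were lower in replicate A, and A was the lowest of the 3 libraries in all 3 groups for each of them. LIFR and OSMR were higher in replicate A.

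For IL6 the log2 difference of replicate A was -2.04 ± 0.272 (edgeR adjusted p = 0.00031), and within the groups it was -0.72 in control, -2.28 with hairpin #1 and -2.38 with hairpin #3. For LIF it was -0.67 ± 0.0738 (edgeR adjusted p = 8.88e-05), which was larger in size than the LIF difference in any of the comparisons of groups. SOCS3 differed by -0.43 (edgeR adjusted p = 0.0027), CLCF1 by -0.30 (0.032), LIFR by 0.43 (0.017) and OSMR by 0.20 (0.044), each with the edgeR adjusted p in parentheses. Compared within each letter, IL6 was above control with hairpin #1 by 2.22, 4.40 and 3.17 in A, B and C, and with hairpin #3 by 0.10, 1.82 and 1.71. LIF, CLCF1 and IL6R were lower and IL6, IL11, IL6ST, LIFR and SOCS3 higher than control within every letter with both hairpins, with LIF differences of -0.61 to -0.06. Both hairpins were set against the same control library of each letter. The share of all tested genes that kept their sign in this way was not counted, so it is not known whether the members differ from other genes in this. OSMR with hairpin #3 was within 0.11 of control in every letter. What the letter stands for is not given beyond a replicate.

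**Figure D4:**
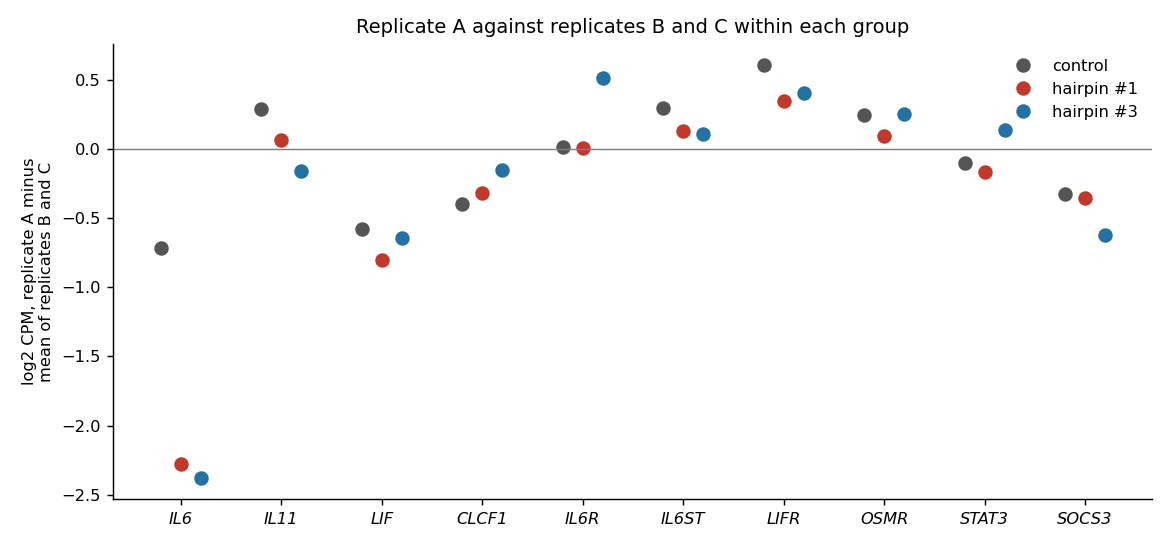
Log2 CPM of replicate A minus the mean of replicates B and C in control (grey), hairpin #1 (red) and hairpin #3 (blue) for each member. The 3 points of IL6, LIF, CLCF1 and SOCS3 all lie below 0, and those of LIFR, OSMR and IL6ST all lie above it.

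The wider pathway was read from 7 lists of 61 genes, of which 44 were tested, and its counts stand beside the 14.7% of all tested genes called pooled. Among the other ligands, 3 of 6 were tested and 1 was called in the pooled comparison: EBI3, a subunit of IL-27 and IL-35, rose by 1.47 (edgeR adjusted p = 0.010), from 2.62, 3.33 and 5.97 CPM in control to 5.70 to 18.7 CPM in the knockdown libraries, where hairpin #1 replicate A lay within the control range. The transcript of oncostatin M, OSM, the ligand of OSMR, had counts in no control or hairpin #1 library and at most 0.0921 CPM in any library. Of the other receptors, 2 of 4 tested were called, both higher. IL31RA, which pairs with OSMR to bind IL-31, rose by 4.09 ± 0.357 (edgeR adjusted p = 3.64e-06), from 0.0956 to 0.242 CPM in control to 2.29 to 4.18 CPM in the knockdown libraries. IL11RA, the chain that binds IL-11, rose by 1.42 ± 0.160 (edgeR adjusted p = 3.06e-05), with log2 rises of 1.45 with hairpin #1 and 1.39 with hairpin #3.

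The 6 tested kinases and other STATs, which include JAK1, JAK2 and TYK2, had no pooled call, and 1 of them had an edgeR adjusted p under 0.05 (JAK1, a log2 change of 0.26). Of the 8 inhibitors, 2 were called pooled, and both fell: CISH, a SOCS family member, by -2.66 and the phosphatase gene PTPN6 by -1.05 (edgeR adjusted p = 7.87e-05 and 0.00023). CISH had 3 to 10 counts per knockdown library. Neither protease known to shed IL6R, ADAM10 or ADAM17, was called.

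Of 17 tested genes known as STAT3 targets, 6 were called in the pooled comparison, 1 higher and 5 lower, with a list median of -0.45. Of the 17, 7 were called with hairpin #1, 2 higher and 5 lower, against 16.3% of all tested genes. Hairpin #3 gave 3 calls, all lower, a share close to the 15.3% of all tested genes. LRG1, a secreted glycoprotein, changed by -3.69, the kinase gene PIM1 by -1.55 and FOS by -1.32 (edgeR adjusted p = 2.39e-05, 1.90e-05 and 0.029). FOS was not called with hairpin #3 (edgeR adjusted p = 0.091). LRG1 had 3 to 12 and FOS 3 to 16 counts per knockdown library. The others, named after their values were seen, were IRF1 (-1.25) and CCND1 (-1.08), both lower, and BCL3 (1.04), higher. Of the 15 acute-phase genes, which IL-6 induces in liver, 4 were tested and 3 were called, all lower, with a median of -1.88 over the 4. LCN2 fell from 78.5, 304.8 and 282.5 CPM in control to at most 0.829 CPM in any knockdown library (a log2 change of -8.55, edgeR adjusted p = 7.35e-08). SAA2 changed by -2.33 and SERPINA1 by -1.43 (edgeR adjusted p = 0.0052 and 6.39e-05). SAA2 had 2 to 17 counts per knockdown library. In the replicate comparison all 4 acute-phase genes and 7 of the 17 STAT3 targets were called lower in replicate A, and 1 STAT3 target higher, against 21% of all tested genes called in either direction. Genes of these lists answer to other pathways too, and which signal moved them was not tested.

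The genes with the profile most like that of IL6 were ranked by Pearson's r of log2 CPM over the 9 libraries, among 11071 tested genes averaging 5 CPM or more. LAPTM4A (r = 0.99), P2RY6 (0.98), CYTH1 (0.97), TCF7L2 (0.97) and C5orf45 (0.97) ranked highest. These are the extremes of many ranked genes over 9 libraries that share group and replicate letter, and are given as a description. P2RY6, a nucleotide receptor gene, was at 12.1, 17.5 and 21.2 CPM in control, 38.1, 87.4 and 72.8 CPM with hairpin #1 and 17.0, 26.0 and 41.8 CPM with hairpin #3, so that replicate A was the lowest of each group, as for IL6.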

How the data were processed

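Poly(A) RNA of OVCA433 cells was sequenced from non-directional libraries, so strand could not separate the reads of overlapping genes. How reads that overlap more than 1 gene were counted is not known here. The authors deposited raw read counts per gene without normalization or filtering, and a gene length. The submitters' processing notes name HISAT2 2.0.5, featureCounts 1.5.0-p3 and hg38. Positions in the table were equal to those in GENCODE 29 for all 10 members and 95.2% of genes.

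Counts were filtered with filterByExpr (minimum count 10, minimum total count 15), which left 15975 genes, and scaled by TMM. The quasi-likelihood test of edgeR 4.0.16 (R 4.3.3) was used, with p-values adjusted over all tested genes by Benjamini-Hochberg. A call required an adjusted p under 0.05 and a 2-fold change. The pooled comparison used 6 against 3 libraries, and the others a 3-group model of all 9. Each SE was the fold change divided by the root of F. The method was tested on simulated data.

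The alternatives were other filters and scalings, DESeq2 1.42.0, a replicate block, no fold threshold, a 3-group model for the pooled comparison, each library left out, and, chosen after seeing the data, all replicate A libraries left out. For IL6, IL11 and OSMR the 3-group model gave pooled edgeR adjusted p = 0.0042, 3.52e-05 and 0.0063, with OSMR still under 2-fold. The members and lists were chosen with earlier results of these data known. Genes beyond the members were named by rule: at most 3 per list with the largest change among those called pooled. Other pathway genes are named only to say what a list holds, or where a count was small, after their values were seen. P-values measure the spread between these replicates. In the pooled comparison that spread also holds the difference between the hairpins, as for LIFR, with an SE of 0.412 pooled and 0.227 with hairpin #1. Counting error sets the precision of low genes such as IL6R.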

Additional observations from a re-analysis of the deposited data

Results flagged for a closer look

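For 6 of the 10 members the effect of hairpin #3 differed from that of hairpin #1, by the direct test between the hairpins at an edgeR adjusted p under 0.05. By the same rule 11.6% of all tested genes differed. The log2 difference, hairpin #3 minus hairpin #1, was -2.04 for IL6, 1.25 for IL11, 1.17 for IL6R, -0.52 for IL6ST, -1.28 for LIFR and -0.98 for OSMR. IL6ST and OSMR were under 2-fold. The IL6 and IL6R differences lost their call when single libraries were left out, while those of IL11 and LIFR kept theirs under all alternatives run. LIFR and OSMR lie in a stretch of chromosome 5 whose genes had a median difference of -0.75. In the pooled arm of 6 knockdown libraries, Dixon's criterion flagged no library of any member. The range there also holds the difference between the hairpins, so the criterion could miss a library that stands apart within its own group. For IL6, hairpin #3 replicate A was at 1.295 CPM, beside 5.98 and 7.64 CPM in replicates B and C, and was not flagged.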

How the results depend on the processing

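Across the alternatives, 689 values for single members kept their direction and side of the threshold, 25 lost a call, 19 gained one and 7 changed sign. Without the fold threshold 5269, 6032, 5536 and 1857 genes were called (pooled, hairpin #1, hairpin #3, between hairpins), with 8 members for hairpin #1 and 6 for hairpin #3. With 1 library left out, members called ranged from 3 to 5 pooled, the lowest without control replicate B or C, and from 2 to 4 between the hairpins, the lowest without replicate B of either hairpin. The sign changes were all between the hairpins, in values far from a call: SOCS3 at 0.00119 with library totals, 0.049 without the replicate A libraries and -0.14 to 0.16 with 1 library left out, LIF at -0.046 to 0.37, and CLCF1 at -0.16 to 0.0052. IL6 with hairpin #3 was called with no filter on low counts (edgeR adjusted p = 2.03e-11). This was not particular to IL6. With hairpin #1 that setting gave edgeR adjusted p = 7.68e-48 for LIFR and 1.34e-24 for CLCF1, at log2 changes of 2.17 and -1.47. For STAT3 the edgeR adjusted p rose, from 0.42 to 0.59. The cause was not tested. The IL6 difference between hairpins was not called by DESeq2 (adjusted p = 0.069). OSMR lost its replicate A call by DESeq2 (adjusted p = 0.051) and with no filter (0.058).

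Same-letter libraries deviated together for A (r = 0.31 to 0.36) and C (0.16 to 0.24) but little for B (0.04 to 0.09). Between different letters r was -0.32 to 0.13, and 7 of 9 libraries correlated best with their own letter. The main comparisons of groups left the letter out because B shared little, although A and C did share deviations. Differences between letters therefore count as spread in their p-values. With the letter as a replicate block 2306, 2675, 2515 and 754 genes and 5, 5, 4 and 4 members were called, IL6 with hairpin #3 among them at 1.43 (edgeR adjusted p = 0.0019). LIF then had adjusted p = 0.017 pooled, 0.00031 with hairpin #1 and 0.015 with hairpin #3, all under 2-fold. Low counts limit IL6 in control, IL6R with hairpin #1, and CISH, LRG1, FOS and SAA2 with both hairpins.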
